A study of Canis lupus familiaris with 32 samples.

Results

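Of the 24580 genes listed for dog hip soft tissue, 179 stepped up in level from embryonic hip to young tissue and again from young to adult control tissue, in the hip joint capsule and in the teres ligament alike. They were chosen by measured values. In each tissue the young mean had to be at least 2 times the embryonic mean, and the adult control mean at least 2 times the young mean and at least 5 CPM. CPM is the estimated number of fragments of a gene per 1000000 fragments of its library. The average of the 7 group means had to be below 1000 CPM, and 8 further gene IDs were set aside, of which 3 met the thresholds. The thresholds were met by 335 genes in capsule, by 284 in ligament and by 182 in both. The levels in embryonic, young and control libraries therefore carry no test here, and the tests below use the affected libraries.

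The joint capsule is a fibrous sleeve lined by synovium, and the teres ligament is a cord inside the joint that runs from the femoral head to the acetabulum. In connective tissue of this kind, growth before and after birth is marked by dividing fibroblasts that lay down collagen. Maturation brings fewer cells per volume, thicker and more cross-linked collagen fibres, and more settled populations of vessel, fat, nerve and immune cells. A bulk sample mixes the RNA of all of these cells.

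RNA was sequenced from 32 libraries of 25 dogs, and 7 dogs gave both tissues. The groups were embryonic hip (3 libraries), young capsule (6) and young ligament (4) of dogs under 1 month, affected capsule (4) and affected ligament (7) of dogs with hip dysplasia, and control capsule (5) and control ligament (3) of adult dogs. Affected capsules came from 3 dogs aged 4 months and 1 adult, and affected ligaments from 3 dogs aged 4 months and 4 adults. The labels give neither breed nor treatment. The embryonic sample was whole hip, so age and tissue differ together in the first step. Adult affected dogs do not share an identifier start with the 3 dogs aged 4 months, while 1 young dog does, so that start and age cannot be told apart among affected dogs.

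Libraries held 2857235 to 9895143 fragments (median 4993068). The files list Ensembl IDs without gene names, and the reference table used for names matched 0 of the 179, so no role, marker list or sequence is given here. Fragments shared between near-identical copies or overlapping genes could not be recognised for any named ID. In bulk tissue, more cells of a type and more RNA per cell cannot be told apart. Replicates within a group were different dogs, and the tests set the difference between groups against the spread between dogs. For capsule against ligament, which was paired by dog, that spread is of the differences within dogs.

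The values nearest the thresholds show how sharp the choice was. In capsule, the lowest young over embryonic ratio among the chosen genes was 2.002, and the highest among genes left out by that threshold alone was 1.98. The corresponding ratios of control over young were 2.01 inside and 1.99 outside. In ligament they were 2.01 inside and 1.95 outside for the first step, and 2.004 inside and 1.98 outside for the second. The second step in ligament alone kept out 91 genes, the largest number for any threshold, against 50 and 41 for the first and second steps in capsule and 33 for the first step in ligament. Control levels began at 5.30 CPM in capsule and 5.16 CPM in ligament, with 4.88 and 4.71 CPM the nearest outside. The mean over groups reached 929 CPM inside and began at 1126 CPM outside. With each embryonic, young or control library left out in turn, 84 of the 179 genes met the rule every time.

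The share of all fragments held by these genes gives their joint level in a library. It was 0.135% ± 0.00937 (SD, n = 3) in embryonic hip. It was 0.564% ± 0.101 (n = 6) in young capsules and 0.666% ± 0.112 (n = 4) in young ligaments. Affected capsules at 4 months held 1.95% ± 0.129 (n = 3), and the capsule of the affected adult held 1.85%. Control capsules held 2.49% ± 0.241 (n = 5). Affected ligaments held 2.17% ± 0.767 (n = 3) at 4 months and 1.92% ± 0.38 (n = 4) in adults, and control ligaments 2.70% ± 0.202 (n = 3). In both tissues the affected groups averaged between the young and the control groups. All 4 affected capsules, at 1.805% to 2.04%, were below the lowest control capsule at 2.18%. Controls were chosen as high, so a lower share in affected capsules is partly built into the choice. The 10 most abundant genes of a library held 24.7% to 30.4% of fragments in affected and 18.7% to 25.3% in control capsules. The part this plays in the share was not tested. In ligament the groups overlapped, because 1 affected ligament at 4 months (replicate 6) held 3.05%, more than the highest control at 2.88%. Among dogs with the shared identifier start, the young dog stood at 0.645% in capsule and 0.831% in ligament, while the dogs aged 4 months stood at 1.805% to 2.04% and 1.60% to 3.05%.

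**Figure D1:**
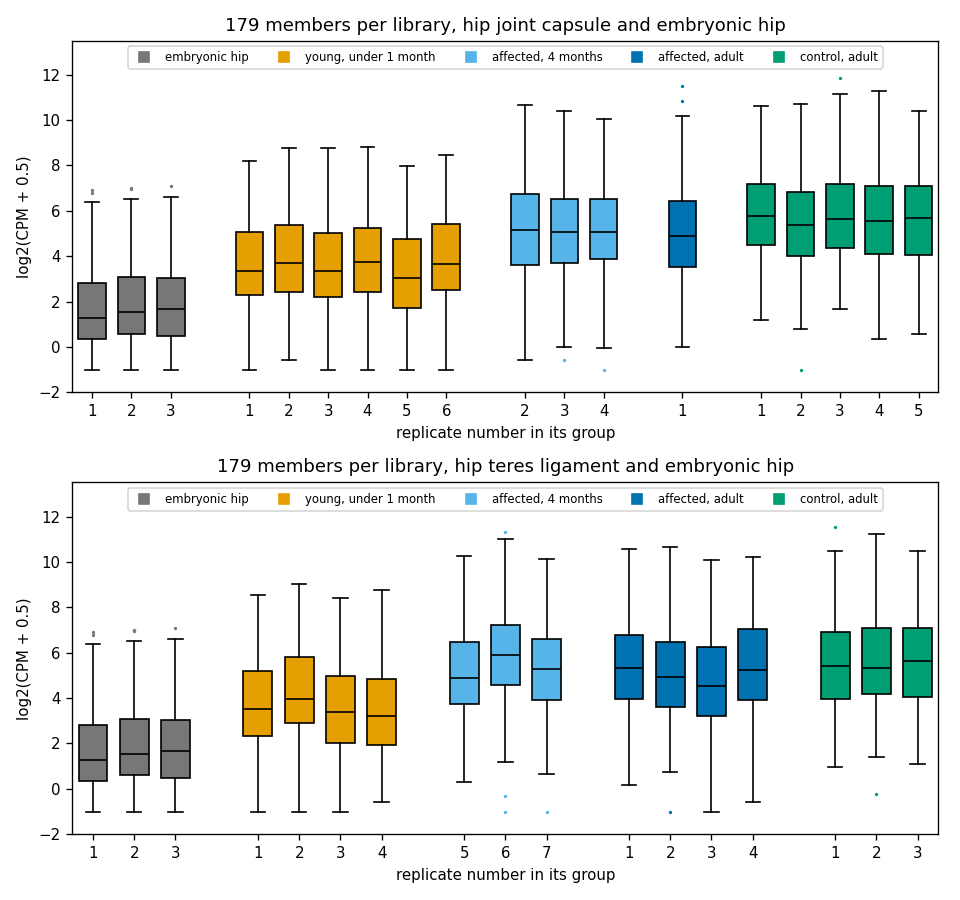
Level of the 179 genes in each library, as log2(CPM + 0.5), with boxes at the quartiles, a line at the median, whiskers to the last value within 1.5 times the interquartile range and dots beyond them; embryonic hip is drawn in both panels. The boxes climb from embryonic hip through young to control libraries, as the choice of genes requires. In affected libraries the median log2 difference from the control mean ran from -0.90 (ligament replicate 3) to 0.09 (ligament replicate 6).

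The median gene had a mean of 2.38 CPM in embryonic hip, 11.2 CPM in young capsules and 53.8 CPM in control capsules. In ligament the medians were 12.9 CPM in young and 46.3 CPM in control dogs. On the per-length scale of the deposited table, median FPKM was 1.02 in embryonic hip, 5.96 in young and 26.9 in control capsules, and 7.81 in young and 23.8 in control ligaments. The median size of the first step, young over embryonic, was 4.06-fold in capsule (quartiles 2.80 to 7.72) and 4.64-fold in ligament (3.09 to 7.39). The median size of the second step, control over young, was 3.59-fold in capsule (2.67 to 5.58) and 3.39-fold in ligament (2.58 to 5.31). From embryo to control the median ratio was 16.4 in capsule and 16.9 in ligament. For 7 genes with 0 embryonic fragments no first step could be computed. Another 24 had 1 to 10 fragments over the 3 embryonic libraries, so their first step is imprecise.

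The genes differed in which step was larger. Among the 172 with both ratios, the first step was the larger for 97 in capsule and for 111 in ligament, and the second for 75 and 61. These ratios use library sums. TMM scaling, which trims the most changed genes, multiplied those sums by a mean of 1.30 in embryonic hip and 0.90 in both young groups. The mean factor was 1.04 in control capsules and 1.07 in control ligaments. On average that scale raises the first step and lowers the second, and the order of steps was not counted with it. A first step of at least 8-fold was found for 38 genes in capsule and 39 in ligament. A second step of that size was found for 32 in capsule and 16 in ligament. The sizes of the first step ran in parallel between the tissues (Pearson r = 0.85, Spearman rho = 0.79 across 172 genes), but both ratios are taken over the same 3 embryonic libraries. For the second step, where the tissues share no library although some dogs gave both, r was 0.62 and rho 0.43 across 179 genes.

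**Figure D2:**
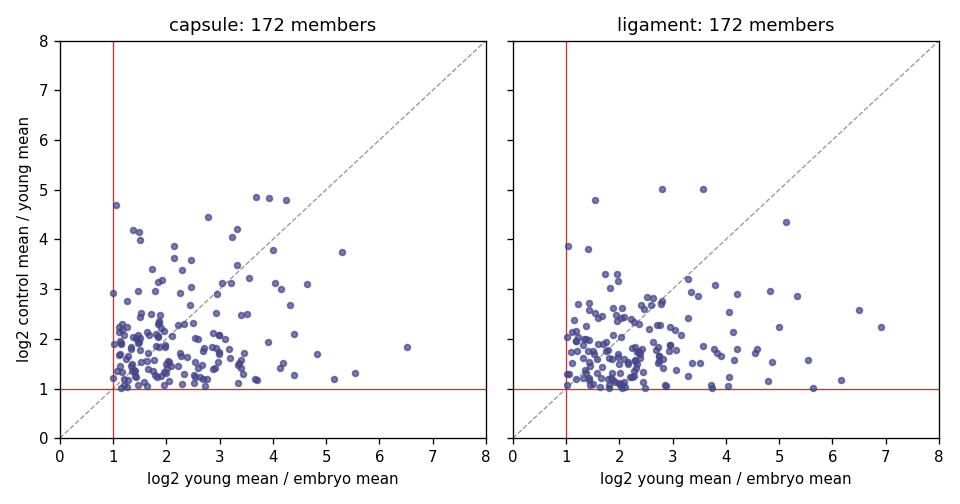
Size of the second step (vertical axis, log2 of control over young mean) against the first (horizontal axis, log2 of young over embryonic mean) for the 172 genes with fragments in embryonic hip, capsule at left and ligament at right. Red lines mark the 2-fold thresholds. Points below the dashed line of equal steps are the 97 genes in capsule and 111 in ligament with the larger first step by library sums.

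Means can hide overlapping libraries. Every young capsule was above every embryonic hip for 144 of the 179 genes, where 5.74% of all genes with fragments had this order. Every control capsule was above every young capsule for 124 (10.6% of all genes). In ligament, every young library was above every embryonic one for 139 (8.18%), and every control library above every young one for 122 (13.8%). Both steps were free of overlap for 104 genes in capsule and 102 in ligament, and all 4 steps for 73. For these combinations the share over all genes was not counted. The choice of genes sets these counts, so nothing is read from them beyond the spread they show.

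ENSCAFG00000009519 and ENSCAFG00000005887 had the largest smallest step, meaning that the least of their 4 step ratios exceeded that of any other gene with embryonic fragments. ENSCAFG00000009519 had 0.771, 0.672 and 0.898 CPM in embryonic hip, on 13 fragments in all. It had 3.21 to 22.1 CPM (median of 6 libraries between 8.31 and 9.45) in young capsules and 284, 382, 106, 178 and 495 CPM in control capsules. Its young ligaments had 15.1, 60.5, 21.6 and 11.5 CPM, and its control ligaments 130, 1082 and 447 CPM. No stages overlapped in either tissue, and the smallest step was 12.8-fold. Affected capsules had 226, 329 and 264 CPM at 4 months, within the range of the controls, and 102 CPM in the adult, under the lowest control. Affected ligaments had 180, 216 and 320 CPM at 4 months and 420, 363, 180 and 435 CPM in adults, all within the wide range of the controls, with log2 differences of the means from control of -1.21 and -0.66. ENSCAFG00000005887 had a smallest step of 10.1-fold. Its affected capsules had 66.9, 55.2, 52.4 and 36.8 CPM, below every control capsule at 98.0, 83.5, 356, 291 and 273 CPM. That difference did not pass the test described below (log2 fold change -1.92, SE 0.44, edgeR adjusted p = 0.13).

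Affected libraries entered the choice of genes only through the cap on the mean of the 7 groups. Each affected group was placed between the young and the control mean of its tissue, as a description, since those means chose the genes. In affected capsules at 4 months, 122 of 179 genes lay between both means, 54 above the control mean and 3 below the young mean. In the 1 capsule of an affected adult, 127 lay between, 30 above control and 22 below young. In affected ligaments at 4 months, 89 lay between, 77 above control and 13 below young. In ligaments of affected adults, 134 lay between, 42 above control and 3 below young. The median gene had covered 0.82 of the log2 distance from young to control in capsules at 4 months, 0.59 in the adult capsule, 0.94 in ligaments at 4 months and 0.77 in adult ligaments. Levels at least 2-fold below control were found for 36 genes in capsules at 4 months, 70 in the adult capsule, 29 in ligaments at 4 months and 40 in adult ligaments. In all 4 affected groups, 51 genes were below control, 2 were above it and 3 were at least 2-fold below it. Controls were chosen as high, which by itself places other libraries lower. The median log2 difference from control was -0.32 in capsules at 4 months, -0.82 in the adult capsule, -0.11 in ligaments at 4 months and -0.42 in adult ligaments. Over all genes at 5 CPM or more in both control groups it was -0.14, -0.20, 0.05 and -0.27 in the same order of groups, and its part in the positions was not tested. With libraries scaled by TMM, which trims the most changed genes before setting the scale, the medians of the 179 were -0.19, -0.70, -0.22 and -0.26 in that order, and those of all such genes -0.01, -0.09, -0.06 and -0.09. The group nearest control was then capsules at 4 months instead of ligaments at 4 months. By this scale, 63 genes were above control in adult ligaments and 28 at least 2-fold below it. Genes above control then numbered 71 in capsules at 4 months, 35 in the adult capsule and 69 in ligaments at 4 months.

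**Figure D3:**
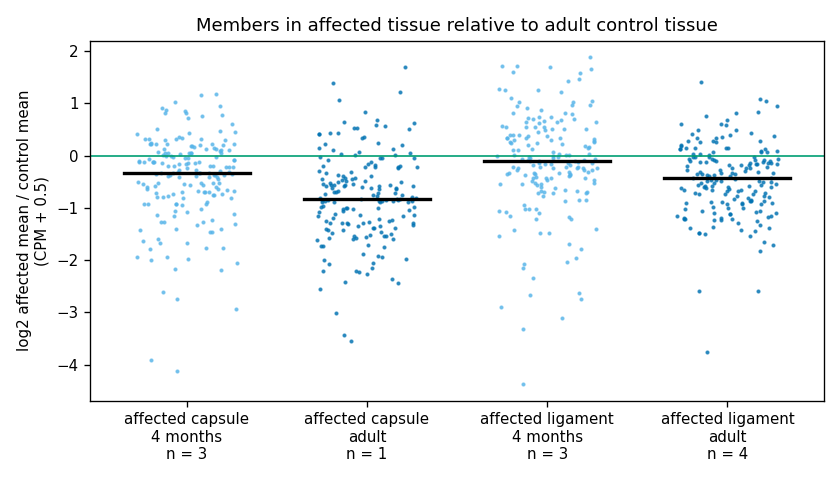
Level of each of the 179 genes in each affected group relative to the adult control mean of its tissue, as the difference of log2(mean CPM + 0.5), with 1 point a gene and a black line at the median; the green line at 0 is the control mean. All 4 medians lie below the line, lowest in the 1 adult capsule and, with this library-sum scale, nearest to it in ligaments at 4 months (with TMM scaling, capsules at 4 months), with points on both sides in each group.

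The comparison of adults with dogs aged 4 months in affected ligament shares no library with those that set the step ratios, although affected libraries entered the cap on the mean of the 7 groups. Here the genes moved both ways, as did all genes tested. The log2 fold change was positive for 46.3% of the 177 and for 48.0% of all genes tested. With edgeR's quasi-likelihood test and Benjamini-Hochberg adjustment over all genes, 23 of the 177 tested were called higher in adults (12.99%), where 8.35% of all genes tested and 9.73% of those at 5 CPM or more in both control groups were called. Another 15 were called lower (8.47%), against 6.24% of all genes and 6.82% of those at 5 CPM or more. The shares are given side by side without a test between them. The median log2 fold change of the 177 was -0.06, against -0.03 for all genes, with 82 positive and 95 negative. An unadjusted p under 0.05 was found for 70, against 4163 of all 12619 genes tested. A call is an adjusted p under 0.05. Without affected replicates 1, 2, 3, 6 and 7 in turn, 3, 6, 5, 1 and 4 genes were called lower, of which 3, 5, 5, 1 and 2 were among the 15. Those fits called 479, 294, 288, 162 and 355 lower over all genes. Without replicate 6, 13 genes were called higher, 12 of them among the 23, where 387 of all 12817 genes were called higher.

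ENSCAFG00000007338 had the largest change. It had 304, 135, 156 and 232 CPM in adult affected ligaments, and 12.0, 9.59 and 29.1 CPM at 4 months. The lowest adult stood over 4 times above the highest dog aged 4 months (log2 fold change 3.87, SE 0.44, edgeR adjusted p = 0.0070), and the call held with each library left out. At 4 months its ligament mean of 16.9 CPM was under the young ligament mean of 45.1 CPM. In capsules of the same 3 dogs it had 359, 657 and 51.5 CPM, each above that dog's ligament, though the difference between tissues was not called (log2 fold change 4.40, SE 1.24, edgeR adjusted p = 0.29). Control ligaments spread widely, at 69.4, 13.8 and 304 CPM.

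ENSCAFG00000017040 was high in the same libraries. It had 1517, 386, 421 and 955 CPM in adult affected ligaments, and 17.4, 46.1 and 139 CPM at 4 months, without overlap (log2 fold change 3.85, SE 0.80, edgeR adjusted p = 0.021). The call was lost without affected replicate 6 (edgeR adjusted p = 0.063) and without a filter on low counts (0.055). In affected capsules at 4 months it had 930, 1028 and 57.9 CPM, so that 1 dog was low in both genes there.

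ENSCAFG00000013968 went the other way. It had 68.3, 124, 22.8 and 97.4 CPM in adult affected ligaments, and 320, 600 and 357 CPM at 4 months, without overlap (log2 fold change -2.11, SE 0.47, edgeR adjusted p = 0.022). Control ligaments had 236, 327 and 90.1 CPM, with a mean of 218 CPM. The dogs aged 4 months averaged 425 CPM, above that mean, but their lowest value of 320 CPM was under the highest control. Their capsules had 107, 76.5 and 213 CPM, each below that dog's ligament, a difference that was not called (log2 fold change -1.46, edgeR adjusted p = 0.19). The age call was lost without affected replicates 1, 6 or 7 (edgeR adjusted p = 0.052 to 0.077).

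ENSCAFG00000013805 was a low gene with the same order. It had 3.07, 3.78, 0.222 and 2.25 CPM in adult affected ligaments, and 9.96, 10.8 and 15.4 CPM at 4 months (log2 fold change -2.10, SE 0.54, edgeR adjusted p = 0.029). The adult values rest on 15, 13, 1 and 14 fragments, and the call was lost without affected replicates 1, 5, 6 or 7 (edgeR adjusted p = 0.054 to 0.094).

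The genes called in this comparison were then placed against the other groups as a description, since they were picked for their values at 4 months. For the 23 called higher, with log2 fold changes of 0.80 to 3.87, the median level was 107 CPM in adult affected ligaments and 29.8 CPM at 4 months. Their median was 21.7 CPM in young and 116 CPM in control ligaments. Their mean at 4 months was below the young mean for 12 and between the young and control means for 11, and in adults it was above the control mean for 16. In the capsules of the dogs aged 4 months their median was 93.4 CPM, against 19.4 CPM in young and 139 CPM in control capsules. For the 15 called lower, with log2 fold changes of -0.93 to -2.11, the median was 16.4 CPM in adult affected ligaments and 60.5 CPM at 4 months. Their median was 6.99 CPM in young and 28.6 CPM in control ligaments. At 4 months each of the 15 stood above the control ligament mean, and in affected adults each stood between the young and control means. For these 15 the highest mean among the ligament groups was thus that of affected dogs at 4 months.

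**Figure D4:**
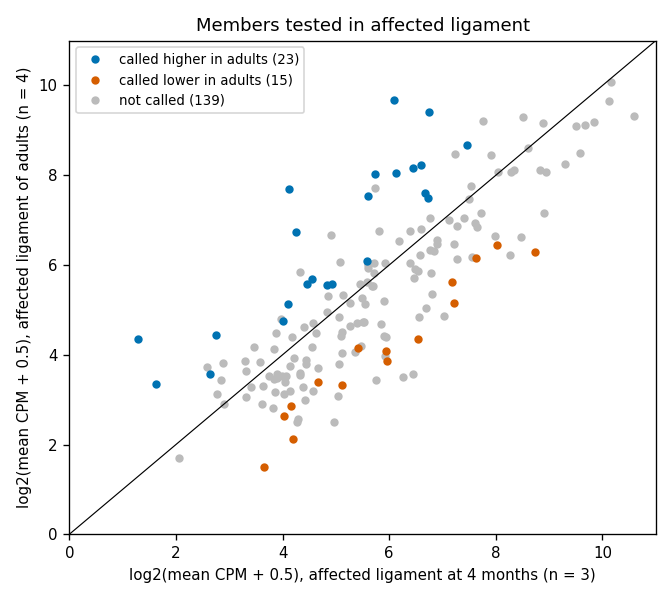
Mean level of the 177 tested genes in affected ligaments of adults (vertical axis, 4 libraries) against affected ligaments at 4 months (horizontal axis, 3 libraries), both as log2(mean CPM + 0.5). The 23 genes called higher in adults (blue) lie above the line of equal levels, the 15 called lower (orange) below it, and the 139 others (grey) on both sides.

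The size of the age difference in affected ligament was set beside the size of the second step as a description. Across 177 genes, the log2 fold change of adults over 4 months had a Spearman rho of -0.13 with the log2 ratio of control over young ligament and of 0.33 with that of control over young capsule. The comparisons share no library, but the ratios of control over young chose the genes and have no values below the threshold.

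In capsule, affected dogs were set against adult controls, the comparison the study made for hip dysplasia. Of the 179 genes, 0 were called higher, where 0.134% of all genes were called, and 3 were called lower (1.68%, against 0.102%), with edgeR adjusted p of 0.0389 to 0.0391. DESeq2 called 10 lower, against 57 of all 18529 genes. At an unadjusted p under 0.05 there were 32, against 783 of all 12718 genes tested. Every affected capsule was above every control for 0 genes (0.684% of all genes) and below every control for 17 (2.49%). The median log2 fold change was -0.22, against 0.02 for all genes, with 56 positive and 123 negative and a range of -5.38 to 1.04. The controls chose these genes for being high and 3 of the 4 affected dogs were 4 months old, so a lower level is partly built into the choice. No lower call remained without affected replicates 2, 3 or 4 or without control replicates 1, 3, 4 or 5. Without affected replicate 1 there were 6, against 21 of all genes, and without control replicate 2 there were 5, against 15. With age class as a covariate, where disease rests on the 1 adult affected capsule, the median log2 fold change was -0.69.

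ENSCAFG00000013362 had the largest called difference. It had 12.6, 45.6, 33.5 and 39.8 CPM in affected capsules, and 213, 136, 165, 148 and 103 CPM in control capsules. Every affected capsule was under the lowest control by more than 2-fold (log2 fold change -2.06, SE 0.34, edgeR adjusted p = 0.039). The capsule of the affected adult was the lowest of the 4 and below the young mean of 19.0 CPM. The call was lost in 7 of 9 fits that left out 1 library (edgeR adjusted p = 0.066 to 0.11). In ligaments of affected adults it had 64.0, 4.07, 9.53 and 52.8 CPM, overlapping control ligaments at 105, 116 and 53.1 CPM.

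ENSCAFG00000029367 had 80.5, 146, 92.5 and 83.7 CPM in affected capsules, and 299, 370, 417, 415 and 209 CPM in control capsules, again without overlap (log2 fold change -1.61, SE 0.29, edgeR adjusted p = 0.039). The adult affected dog stood with the dogs aged 4 months. The call was lost in each of the 9 fits that left out 1 library (edgeR adjusted p = 0.064 to 0.11) and with age class as a covariate (0.29). In adult ligaments the same gene had 109, 42.7, 97.7 and 207 CPM in affected and 314, 485 and 276 CPM in control dogs, also without overlap, but was not called (log2 fold change -1.44, SE 0.40, edgeR adjusted p = 0.25).

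**Figure D5:**
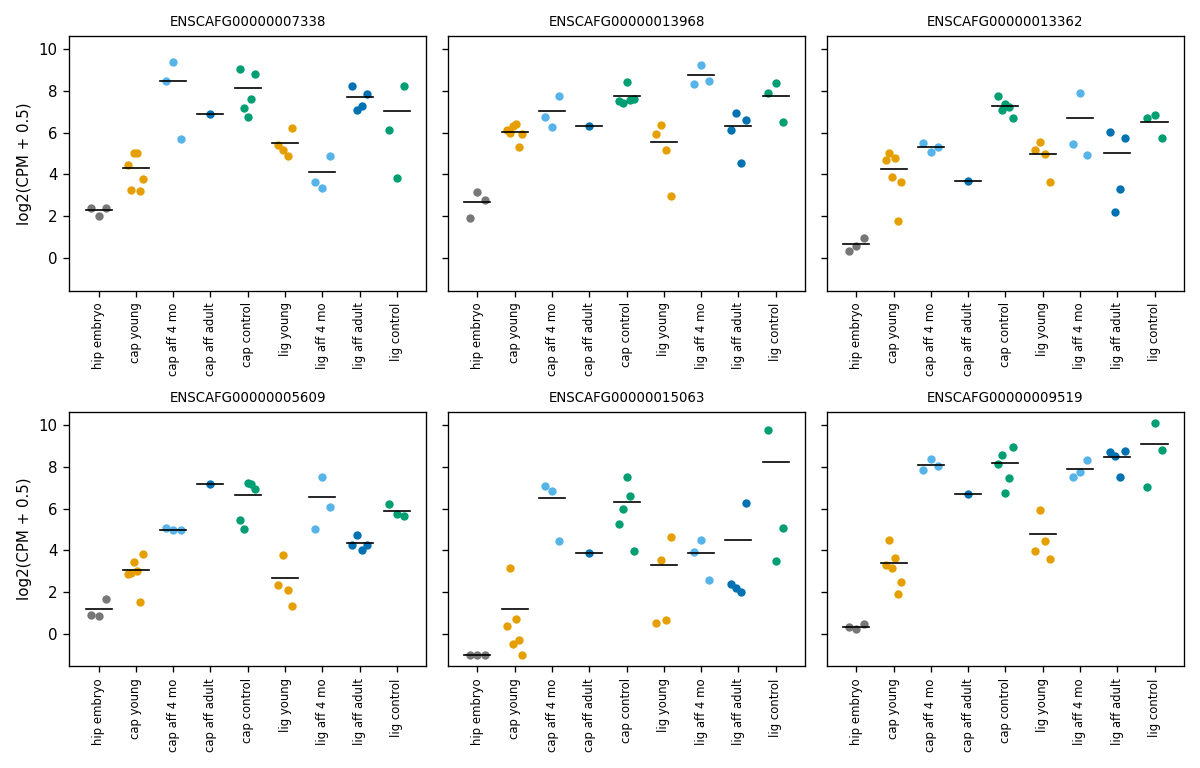
Level of 6 of the genes in each library, as log2(CPM + 0.5), by group: embryonic hip, then capsule and ligament of young, affected (aff, at 4 months and adult) and control dogs; points are libraries and bars are log2(mean CPM + 0.5). ENSCAFG00000007338 is low in affected ligament at 4 months, ENSCAFG00000013968 is high there, and ENSCAFG00000013362 in affected capsules lies below all control capsules.

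In ligament, adult affected dogs were compared with adult controls, which matches the age class. No gene of the 179 was called in either direction by edgeR, where 0% of all genes were called higher and 0% lower. At an unadjusted p under 0.05 there were 33, against 2374 of all 12505 genes tested. DESeq2 called 0 higher and 4 lower, against 36 and 25 of all 18197 genes. Every affected ligament was below every control for 19 genes, where 12.1% of all genes had this order, and above every control for 0 (2.82%). The median log2 fold change was -0.23, against -0.02 for all genes, with 68 positive and 111 negative. The controls again chose the genes. Without control replicate 3, edgeR called 14 higher and 14 lower, where 1077 and 773 of all 12779 genes tested were called.

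The genes with the smallest unadjusted p in this comparison show what the counts hold. ENSCAFG00000005609 had 18.6, 26.2, 15.7 and 18.9 CPM in adult affected ligaments, and 72.9, 53.3 and 49.4 CPM in control ligaments. The groups did not overlap (log2 fold change -1.34, SE 0.26, edgeR adjusted p = 0.25; DESeq2 adjusted p = 0.0074). Among affected capsules it was highest in the adult, at 146 CPM, against 32.7, 30.8 and 30.8 CPM at 4 months, while control capsules had 43.7, 32, 149, 145 and 122 CPM.

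ENSCAFG00000002994 had 155, 129, 85.1 and 156 CPM in adult affected ligaments, and 310, 338 and 264 CPM in control ligaments, without overlap (log2 fold change -0.997, SE 0.21, edgeR adjusted p = 0.25; DESeq2 adjusted p = 0.0079). In the other direction, ENSCAFG00000019512 had 61.0, 50.3, 44.5 and 33.8 CPM in adult affected ligaments, and 9.43, 20.4 and 38.7 CPM in control ligaments (log2 fold change 1.26, SE 0.42, edgeR adjusted p = 0.25). Its groups overlapped through control replicate 3, and without that library it was called (edgeR adjusted p = 0.017). ENSCAFG00000016159 had 15.8, 18.9, 9.09 and 7.22 CPM in adult affected ligaments, and 5.24, 9.10 and 6.38 CPM in control ligaments, with overlap (log2 fold change 1.10, SE 0.39, edgeR adjusted p = 0.25). It is 1 of the 7 genes with 0 embryonic fragments.

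Capsule and ligament were compared within the 3 affected dogs aged 4 months, whose libraries did not set the step ratios. Of the 177 genes tested, 5 were called higher in capsule (2.82%, against 1.19% of all genes) and 0 lower (0.0715% of all genes). At an unadjusted p under 0.05 there were 53, against 1344 of all 12579 genes tested. DESeq2 called 11 higher and 4 lower, against 288 and 28 of all 18051 genes. The median log2 fold change was -0.02, against -0.04 for all genes, and the 5 called ranged from 1.61 to 2.83. Without the dog of capsule replicate 2 and ligament replicate 5, 2 were called higher, against 125 of all genes. Without the dog of capsule replicate 4 and ligament replicate 7, 16 were higher and 5 lower, against 303 and 42. By mean CPM over library sums, 56 of 179 genes were higher in capsule and 123 in ligament at 4 months, but with TMM scaling the counts were 85 and 94. By library sums, 71 of 179 were higher in capsule in young dogs and 88 in controls.

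ENSCAFG00000015063 had the largest called difference. It had 133, 114 and 21.6 CPM in capsules, and 14.9, 21.9 and 5.56 CPM in ligaments of the same dogs in the same order. Capsule was higher in 3 of 3 dogs (log2 fold change 2.83, SE 0.34, edgeR adjusted p = 0.0018). Control capsules had 38.1, 63.1, 181, 95.6 and 15.3 CPM, and control ligaments 863, 10.9 and 33.1 CPM. The control groups overlapped, and their higher ligament mean (302 against 78.5 CPM) rested on control ligament replicate 1. ENSCAFG00000015063 had 0 fragments in embryonic hip. ENSCAFG00000002813 had 40.8, 75.8 and 5.46 CPM in capsules, and 8.72, 7.79 and 2.14 CPM in ligaments of these dogs (log2 fold change 2.70, SE 0.46, edgeR adjusted p = 0.020). It was higher in capsule in 3 of 3 dogs, although the capsule of the third dog was below the other ligaments. It was also called in the age comparison in affected ligament, which uses the same ligaments at 4 months, with 22.7, 23.8, 21.7 and 16.2 CPM in adults (log2 fold change 2.10, SE 0.41, edgeR adjusted p = 0.013).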

How the data were processed

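Hip joint capsule, teres ligament and embryonic hip of dogs were profiled by sequencing of ribosomal RNA-depleted total RNA with directional libraries, per the labels' protocols. Cutadapt 1.8, Bowtie2 2.2, TopHat2 2.0.13 and Cuffdiff 2.2.1 and the canFam3 build are named in the submitters' processing notes, with no word on which tool did what, on the annotation release or on strand. The authors deposited an estimated count of fragments per gene and library, per the file headers, of which 0.332% of values were more than 1e-06 from a whole number, and these counts were rounded before testing. A signal of scaled fragments, deposited by the authors, served with FPKM only for relative gene length. FPKM values, deposited on the same scale, are given as medians. The 9 values with status FAIL were kept. Tables of the separate tissues were not used.

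CPM is 1000000 times the estimated count over the library sum. The 179 genes, the comparisons and the lists were chosen with earlier results of these data known. Lists of cell type markers, written by symbol, could not be applied, because 0 IDs matched a name. Each comparison was fitted on the libraries compared with edgeR 4.0.16 in R 4.3.3 (filterByExpr, TMM, robust quasi-likelihood F test, Benjamini-Hochberg adjustment over all genes tested), called at an adjusted p under 0.05. SE was derived from the F statistic. The fits were also run on simulated counts with known changes. Those counts had the same dispersion for every gene, so no error rate for these data is read from them. IDs named are the 2 in each direction whose log2 fold change was largest among genes called without overlap (same sign in every dog for capsule against ligament), or, with no call, the 2 with the smallest unadjusted p, and the 2 with the largest smallest step. Capsule and ligament were paired by dog. Alternatives were RLE scaling, DESeq2 1.42.0, no filter, leaving out each library, the replicate number as a block, an age covariate, all 7 affected ligaments and no dog block, and, chosen after seeing the data, TMM-scaled CPM for positions and tissue ratios.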

Additional observations from a re-analysis of the deposited data

Results flagged for a closer look

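In groups of 4 to 10 libraries, the gap between the most extreme library and its neighbour was compared with the range of the group (Dixon's criterion at 95%) for the share held by the 179 genes and for the named genes. Of 75 groups tested, 10 had such a library. The criterion flags about 1 in 20 groups when values are independent and normally distributed. Here CPM was used without logs, affected groups mix ages, and the named genes were picked from the same libraries. No excess over chance is therefore read from the count.

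The share of fragments held by the genes was 0.831% in young ligament replicate 2, with the next at 0.632%. This library and young capsule replicate 2 came from the young dog that shares its identifier start with the dogs aged 4 months. Young capsule replicate 2 stood apart for ENSCAFG00000029367, at 102.5 CPM with the next at 36.7 CPM, and for ENSCAFG00000015063, at 8.45 CPM with the next at 1.15 CPM. Affected ligament replicate 6, from a dog aged 4 months, stood apart for ENSCAFG00000013362, at 235 CPM with the next at 64.0 CPM, and for ENSCAFG00000005609, at 180.1 CPM with the next at 66.7 CPM. For ENSCAFG00000005609 the capsule of the affected adult was also apart, at 146 CPM with the next at 32.7 CPM. Affected ligament replicate 4, from an adult, had 75.5 CPM of ENSCAFG00000015063, with the next at 21.9 CPM. Control capsule replicate 3 had 346 CPM of ENSCAFG00000013968, with the next at 192 CPM. Young ligament replicate 4 had 1.83 CPM of ENSCAFG00000016159, with the next at 0.612 CPM. Young ligament replicate 1 was low in ENSCAFG00000002813, at 7.86 CPM with the next at 11.8 CPM. No cause was tested for any of these values.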

How the results depend on the processing

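The rule gave 156 (without control ligament replicate 3) to 196 genes (without embryonic hip replicate 3) with 1 library left out, and 183 with TMM-scaled CPM, of which 133 were among the 179. With 1 library left out, the age comparison in affected ligament called 13 to 28 genes higher and 1 to 17 lower, and its median log2 fold change ran from -0.16 to 0.23. Affected against control capsules gave 0 to 6 lower (2 to 21 over all genes). Adult affected against control ligaments gave 0 to 14 higher and 0 to 14 lower (0 to 1077 and 0 to 773 over all genes). Capsule against ligament, leaving out 1 dog, gave 2 to 16 higher and 0 to 5 lower (125 to 303 and 6 to 42 over all genes). For the age comparison the ranges over all genes were 387 to 1249 higher and 162 to 954 lower. DESeq2 called 23 lower in the age comparison (967 of all genes), 10 lower in capsule (57) and 4 lower in adult ligament (25). In capsule against ligament it called 11 higher (288) and 4 lower (28). Without a filter on low counts, 6 were lower in affected capsules (21 of all genes) and 3 lower in capsule against ligament (22). Without the dog as a block, 2 were higher in capsule than ligament (157 of all genes). With age class as a covariate, the median log2 fold change of affected against control capsules was -0.69. With TMM-scaled CPM, 85 genes were higher in capsule at 4 months. No cause of these changes was tested. All 7 affected ligaments against controls again gave 0 calls, and RLE scaling moved no count by more than 1.5 times.

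The replicate number of the labels was also used as a block, which gave 0 lower in affected capsules (4 of all genes). In adult affected ligaments it gave 2 higher and 6 lower (141 and 63 of all genes). Deviations of same-numbered libraries correlated at -0.37 to 0.22 in capsule and -0.02 to 0.30 in ligament, and the dogs differ, so the numbers do not pair the samples. No paired analysis was possible for the age comparison, because its groups came from different dogs. Depth limits the first step, since the median gene had 40 fragments over the 3 embryonic libraries.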

Other observations

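The spread of the 179 genes within groups is given without a test. The median coefficient of variation of CPM was 47.9% in affected capsules (4 libraries) and 36.6% in control capsules (5), and 54.5% in affected ligaments (7) and 45.7% in control ligaments (3). Affected groups mix dogs aged 4 months with adults. It was 39.3% in young capsules (6), 41.0% in young ligaments (4) and 30.2% in embryonic hip (3, over 172 genes with fragments).

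Log2 levels of every gene were first centred on the mean of each tissue and age group of affected dogs. Differences between those groups therefore do not enter the correlations. Across 10 affected libraries, leaving out the capsule of the adult, pairs of the 179 genes had a median Spearman rho of 0.15, and 3.496% of pairs were at or above 0.8. Pairs of 10233 other genes at 5 CPM or more in both control groups had a median of 0.08, with 2.97% at or above 0.8. These libraries share 3 dogs, and library scaling enters every pair. The median length relative to other genes was 0.881 for the 179 genes and 1.00 for the 10233 others.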
